A study of Mus musculus with 24 samples.

Results

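The olfactory receptors of the chromosome 19 clusters were taken as the genes named Olfr1417 to Olfr1505 in GENCODE M21, leaving out the 27 in that range whose names mark them as pseudogenes. There were 60 such genes of 57010 in the tables, and 1107 named olfactory receptor genes in all. All 60 lay on chromosome 19 in both GENCODE M21 and RefSeq, and all 60 were annotated as protein coding. RNA of the olfactory epithelium of wild-type male C57BL/6J mice aged 8 weeks was counted in 24 libraries, 3 biological replicates in each of 8 groups. The labels give the molecule as total RNA, and the protocol names a kit for stranded messenger RNA libraries. Every mouse was habituated in an odor-free chamber for 4 h and then exposed for 90 min to filter paper. The AD batch held a no-odor group with empty paper, decanal (an aldehyde with a straight carbon chain), the aromatic ketone acetophenone and a 1:1 mixture of both. The OC batch held its own no-odor group, octanal (an aldehyde with a shorter straight chain than decanal), cis-3-hexenol (an unsaturated alcohol) and a 1:1 mixture of both. Odorant groups received 10 µL of liquid, so a mixture held less of each odorant than a single-odorant group did. Each odorant group was compared with the no-odor group of its own batch, to ask which receptor transcripts differed after exposure.

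An olfactory receptor is a G protein-coupled receptor in the cilia of olfactory sensory neurons. A mature sensory neuron transcribes 1 receptor gene from 1 allele, so in a bulk library the level of a receptor transcript follows both the number of neurons that chose the gene and the RNA each of them holds. Fewer cells of a type and less RNA per cell cannot be told apart here. Odorant binding is relayed through the G protein subunit Gnal, the adenylyl cyclase Adcy3 and a cyclic nucleotide-gated channel. Sustained activity of a neuron is known to lower the transcript of its own receptor, which has been used to match odorants to receptors. Of the receptors here, Olfr1440 (MOR215-1) is known as a receptor for the macrocyclic musk muscone.

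RefSeq synonyms placed all but 2 of the 60 receptors in families of the MOR nomenclature, which groups mouse receptors by sequence. The MOR202 family had 30 of them, MOR266 had 8, MOR239 had 6, MOR212 and MOR214 had 4 each, MOR211 had 3, MOR215 had 2 and MOR127 had 1. MOR202 held 41.6% of the counts of the 60 genes over the 24 libraries, MOR239 31.0% and MOR266 15.6%. Coding sequences, taken as the longest open reading frame in the GENCODE M21 transcripts of each gene, showed how close these copies are. Olfr1463 and Olfr1466, both MOR202, were identical at 89.2% of 933 aligned bases, while Olfr1463 and Olfr1443 were identical at 75.4%. Of the 60 genes, 22 had another receptor at 95% identity or more in coding sequence. These included Olfr1417 with Olfr1418 (98.7%), Olfr1480 with Olfr1487 (96.7%), Olfr1477 with Olfr1484 (96.5%) and Olfr1426 with Olfr1425 (95.7%). Counts of such pairs are uncertain, because the authors' counting could have split their shared reads between them.

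The stretch of coding sequence around the conserved motif at the end of transmembrane segment 3 is shown for 7 receptors on which the results turn. Sequences are from the GENCODE M21 transcripts (GRCm38), 5′ to 3′ on the coding strand. Bases are counted from 1 at the start codon of the longest open reading frame. In Olfr1463 the capitals mark a match to ATGGC followed after 4 bases of any kind by GANCG, which was searched on the coding strand between coding bases 300 and 450. In the other 6 the capitals mark bases that differ from Olfr1463 when the windows are aligned at this match. Over the 89 bases, Olfr1466 differed from Olfr1463 at 10, Olfr1443 at 19, Olfr1477 at 22, Olfr1448 at 29, Olfr1440 at 35 and Olfr1426 at 43. The match was found in 43 of the 60 receptors (71.7%) and in 666 of 1041 other olfactory receptors with a coding sequence (64%).
Olfr1463: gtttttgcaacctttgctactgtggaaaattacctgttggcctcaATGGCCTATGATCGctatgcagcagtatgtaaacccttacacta
Olfr1466: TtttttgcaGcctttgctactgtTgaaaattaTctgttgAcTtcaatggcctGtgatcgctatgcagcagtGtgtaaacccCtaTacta
Olfr1443: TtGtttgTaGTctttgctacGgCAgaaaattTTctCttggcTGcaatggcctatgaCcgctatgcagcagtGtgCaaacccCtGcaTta
Olfr1448: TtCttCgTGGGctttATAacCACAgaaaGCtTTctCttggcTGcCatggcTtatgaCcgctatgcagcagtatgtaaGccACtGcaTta
Olfr1477: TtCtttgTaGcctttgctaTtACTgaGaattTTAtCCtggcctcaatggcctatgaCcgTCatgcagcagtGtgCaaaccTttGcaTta
Olfr1426: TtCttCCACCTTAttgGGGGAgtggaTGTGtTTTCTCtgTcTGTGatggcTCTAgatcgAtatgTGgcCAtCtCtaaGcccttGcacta
Olfr1440: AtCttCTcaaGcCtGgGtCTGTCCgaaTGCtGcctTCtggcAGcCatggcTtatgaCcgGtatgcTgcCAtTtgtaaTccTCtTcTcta

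Start-site windows were available from RefSeq for 56 of the 60 genes, but 46 of these starts lay more than 1000 bases inside the most upstream GENCODE M21 start. For 4 genes with untranslated exons both annotations placed the start within 100 bases of each other. Of these, Olfr1443 and Olfr1477 were higher after octanal and after the OC mixture (below), and the bases upstream of both annotated starts are shown, 5′ to 3′ on the strand of the gene (plus for both), from RefSeq with the build GRCm38.p6. Capitals mark matches on either strand to TAATNA, the core bound by homeodomain factors such as Lhx2, or to CCC and GGG spaced by 2 bases of any kind, the core of sites bound by Ebf factors.
Olfr1443, chr19:12677916-12678111: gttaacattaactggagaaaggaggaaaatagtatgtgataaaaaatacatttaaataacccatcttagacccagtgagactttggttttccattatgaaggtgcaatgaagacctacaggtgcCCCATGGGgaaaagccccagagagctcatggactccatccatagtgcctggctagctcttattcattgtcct
Olfr1477, chr19:13500296-13500545: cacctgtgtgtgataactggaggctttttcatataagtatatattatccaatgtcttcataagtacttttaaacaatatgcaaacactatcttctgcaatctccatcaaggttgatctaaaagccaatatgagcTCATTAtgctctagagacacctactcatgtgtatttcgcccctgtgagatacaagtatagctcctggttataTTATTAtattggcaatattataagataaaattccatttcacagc
The window of Olfr1477, 250 bases long, had 2 matches to TAATNA and none to the spaced motif. That of Olfr1443, which is 196 bases long, had 1 match to the spaced motif and none to TAATNA. The windows not shown, of Olfr1434 and Olfr1437, had 2 matches to TAATNA each and none to the spaced motif. Neither of those genes was called in a comparison with no odor. Among 32851 RefSeq windows of 250 bases, 24.3% held TAATNA and 11.8% held the spaced motif.

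Library totals ran from 19003768 to 24802512 counts. Omp, the marker of mature sensory neurons, was at 8867 to 13640 CPM (counts scaled to library size, after TMM scaling within a batch) in every library, and Trpc2, the channel of the vomeronasal organ, at 0 to 6.09 CPM. Olfactory receptors held 0.515% ± 0.0169 of counts (SD, n = 3) in the AD no-odor group but 0.371% ± 0.0511 in the OC no-odor group. Red cell, marrow and bone genes also differed between groups, and their values stand beside the results they move with. The third OC no-odor library had the lowest member share of the 24. Over all genes it also differed more from its replicates than any other library did. The counts of calls are therefore also given without it.

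The 60 receptors together held a steady portion of receptor RNA. Their share of olfactory receptor counts was 4.99% ± 0.204 in the AD no-odor group (SD, n = 3 here and below), 4.91% ± 0.189 with acetophenone, 5.01% ± 0.121 with decanal and 4.86% ± 0.224 with the AD mixture. In the OC batch it was 4.84% ± 0.142 with no odor, 5.02% ± 0.157 with octanal, 4.86% ± 0.293 with cis-3-hexenol and 4.97% ± 0.232 with the OC mixture. All 24 libraries lay between 4.53% and 5.24%, and in both batches the odorant libraries overlapped the no-odor libraries. As a share of all counts the same genes moved more. They held 0.0257% ± 0.00169 of counts in the AD no-odor group, 0.0234% ± 0.00175 with decanal and 0.0224% ± 0.00342 with the AD mixture. In the OC batch they held 0.0180% ± 0.00273 with no odor, 0.0251% ± 0.000917 with octanal, 0.0239% ± 0.000288 with cis-3-hexenol and 0.0266% ± 0.00122 with the mixture, and each odorant library stood above all 3 no-odor libraries.

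**Figure D1:**
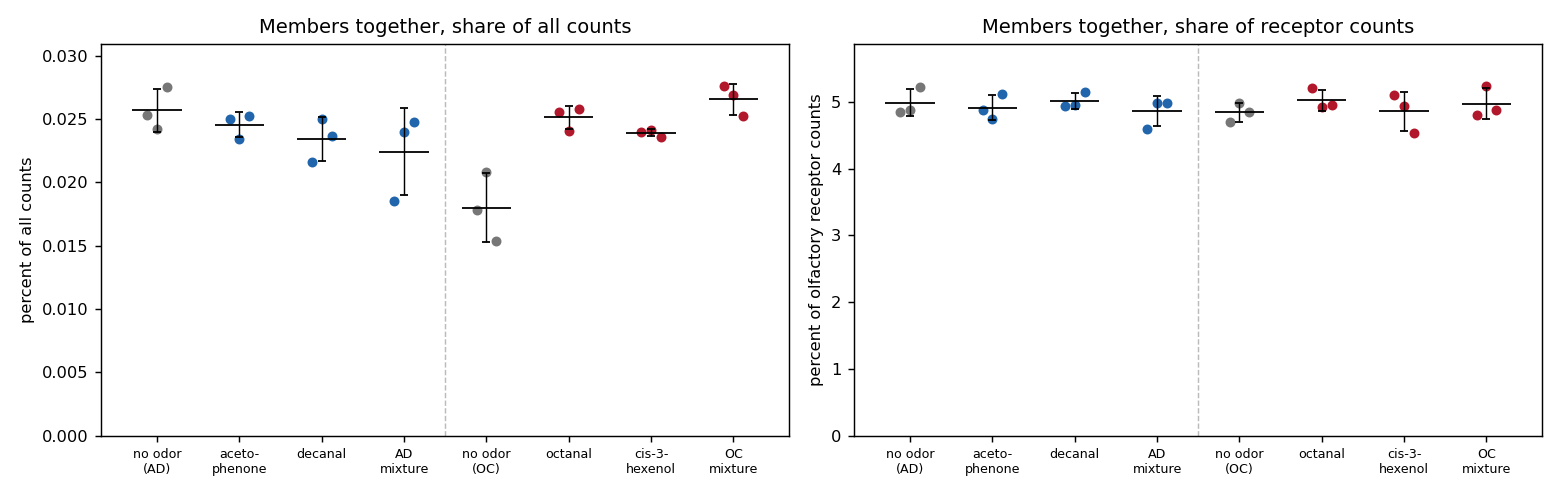
Summed counts of the 60 chromosome 19 receptors in each of 24 libraries (points), with group mean (line) and SD (bars), as a percent of all counts (left) and of all olfactory receptor counts (right); a dashed line separates the AD and OC batches. On the left the OC no-odor libraries lie between 0.0154% and 0.0208%, below every odorant library of their batch, whereas all libraries lie between 4.53% and 5.24% on the right.

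Levels of single receptors spanned a wide range. Per kilobase of transcript, averaged over the 6 no-odor libraries of both batches, Olfr1463 was highest at 13.6 CPM per kb, followed by Olfr1427 at 8.80, Olfr1428 at 7.52, Olfr1426 at 4.32 and Olfr1420 at 4.04. Olfr1427, Olfr1428 and Olfr1426 belong to MOR239 and Olfr1420 to MOR266. The next 5 were Olfr1417 (2.05 CPM per kb), Olfr1466 (1.99), Olfr1484 (1.69), Olfr1491 (1.67) and Olfr1494 (1.66). Their spreads over libraries overlapped, and their order was not tested. The 2 tables were scaled separately, so this order is set across batches. In the AD no-odor group Olfr1463 stood at 18.1 ± 1.34 CPM per kb (SD, n = 3) against 10.1 ± 1.43 for Olfr1427. In the OC no-odor group the values were 9.04 ± 1.56 and 7.53 ± 1.17, with overlapping spreads. Both genes were measured in the same libraries, so these spreads do not test their difference. At the other end, Olfr1475 had 1 count in 1 of 24 libraries, and Olfr1453 and Olfr1436 were at 0 in 17 libraries each. In GENCODE M21 the transcripts of these genes are no longer than their coding sequences (945, 924 and 948 bases). They thus have no annotated untranslated exons there, and whether this bears on their low counts was not tested. After the filter on low counts, 48 of the 60 receptors were tested in AD libraries and 47 in OC libraries; 12 were tested in neither.

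With acetophenone no chromosome 19 receptor passed the test (edgeR, adjusted p under 0.05), as was so for nearly all genes: 0.00512% of the 19525 genes tested were called. At an unadjusted p under 0.05 there were 2 receptors, and DESeq2 also called 0. The smallest p-values belonged to 3 MOR202 receptors. Olfr1447 had a log2 change of -0.79 (SE 0.30, adjusted p = 0.663), Olfr1467 one of -0.94 (SE 0.40, adjusted p = 0.714), and Olfr1444 came next. Olfr1463 measured 45.2, 48.4 and 45.6 CPM with acetophenone against 38.9, 41.4 and 45.1 CPM with no odor. These 3 libraries stood just above the controls, but the log2 fold change of 0.15 (SE 0.10, adjusted p = 0.82) did not pass.

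With decanal 1 of the 48 receptors tested (2.08%), Olfr1463, fell and none rose; over all genes 12.5% were called lower and 11.4% higher, and among 880 other olfactory receptors 3.64% and 1.02%. Olfr1463 measured 24.1, 32.5 and 30.6 CPM with decanal. All 3 libraries lay below the lowest no-odor library, at 38.9 CPM, and the log2 fold change was -0.53 (SE 0.11, adjusted p = 0.00231). Its nearest relative Olfr1466 measured 3.17, 4.29 and 4.15 CPM with decanal against 4.61, 5.36 and 5.96 CPM with no odor. The groups did not overlap, yet the log2 fold change of -0.46 (SE 0.21, adjusted p = 0.134) did not pass; with offsets for transcript length and GC content it was -0.54 and passed (adjusted p = 0.0452). Olfr1424, a MOR239 receptor, came next by p and went the other way, without passing the test. It measured 2.872, 3.623 and 2.097 CPM with decanal against 2.401, 1.416 and 1.333 CPM with no odor, so its groups overlapped. Its log2 fold change of 0.73 was the highest of its family. Olfr1487, Olfr1489 and Olfr1490 were higher in every decanal library than in every no-odor library, and did not pass either. With 3 libraries per group such a gap can arise without any response, and its share over all genes was not counted. Over the 48 receptors the median log2 fold change was -0.03, beside -0.02 for other receptors and 0.01 for all genes.

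With the mixture of acetophenone and decanal 2 of 48 receptors (4.17%) fell, both MOR202, and none rose. Over all genes 11.6% were called lower and 10.6% higher, and among other receptors 4.55% and 0.455%. Olfr1463 measured 23.3, 24.9 and 30.04 CPM with the mixture. Again every mixture library lay below every no-odor library, with a log2 change of -0.68 (SE 0.11, adjusted p = 0.000367). Olfr1484 measured 4.34, 5.06 and 6.50 CPM against 6.65, 7.29 and 8.54 CPM with no odor, a log2 change of -0.50 (SE 0.16, adjusted p = 0.0382). The groups did not overlap, but this call was lost without either of 2 no-odor libraries (the second or the third) or either of 2 mixture libraries (the first or the second). Olfr1466 had a log2 change of -0.46 (SE 0.21, adjusted p = 0.143), and Olfr1443, Olfr1448 and Olfr1427 had -0.19, -0.03 and -0.01. Decanal and the mixture were compared with the same 3 no-odor libraries, so these values are not independent of those for decanal.

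Set against acetophenone alone, the mixture again had lower Olfr1463, with a log2 change of -0.83 (SE 0.11, adjusted p = 6.04e-05), where 25.3% of all genes were called, 13.8% lower and 11.6% higher, and 8.18% of other olfactory receptors were called lower and 3.64% higher. Of the 48 receptors 2 (4.17%) were lower and 1 (2.08%) higher. Olfr1484 was lower by -0.46 (SE 0.16, adjusted p = 0.0488), although its libraries overlapped, and Olfr1447 was higher by 0.88 (SE 0.30, adjusted p = 0.0409). Olfr1447 is at 95.6% identity with Olfr1446 and measured 2.69, 2.17 and 2.12 CPM with the mixture against 1.30, 0.878 and 1.61 CPM. Without the first mixture library 1 call was left of the 3. Set against decanal alone, the mixture gave 0 calls among the receptors and 0% among all genes, with 2 receptors at an unadjusted p under 0.05 and 0 calls by DESeq2. Olfr1463 then had a log2 change of -0.16 (SE 0.11, adjusted p = 0.921).

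Genes of other cell types and of the odor response moved with decanal and the AD mixture. All 5 red cell genes rose with each, and their summed level was 2133 to 2566 CPM with decanal and 1787 to 2530 CPM with the mixture, against 491 to 646 CPM with no odor. Of 8 neutrophil and marrow genes 7 rose with decanal and 6 with the mixture, but their summed levels overlapped (301 to 446 CPM and 316 to 466 CPM, against 176 to 619 CPM). Of 6 bone genes, 4 and 6 rose. Of 16 genes of odor transduction, 9 fell with decanal and 11 with the mixture, and 1 rose in each; Adcy3 fell by 0.40 and 0.51 on the log2 scale and Pde1c, the ciliary phosphodiesterase, by 0.60 and 0.63. Of 9 genes of mature sensory neurons 5 fell with decanal (median log2 fold change -0.33) and 6 with the mixture (-0.34), and 0 rose. Cnga2, Adcy3, Gnal, Ano2 and Rtp1 are in both of these lists, so the counts are not separate. Of the other genes of mature neurons only Umodl1 was called. Omp, which is among the 9, had log2 fold changes of 0.13 (adjusted p = 0.104) and 0.05 (adjusted p = 0.617). Of 17 genes that follow neuron activity 3 rose and 2 fell with decanal, and 6 rose and 1 fell with the mixture. Lrrc3b rose by 0.33 and 0.64 on the log2 scale, and the immediate early gene Nr4a1 rose with the mixture (0.92). The genes that fell were Arc, by 0.69 with decanal and 0.50 with the mixture, and Egr1, by 0.57 with decanal. The part of these genes in the result for Olfr1463 was not tested. When libraries were scaled to their summed olfactory receptor counts, Olfr1463 was still called lower, with log2 fold changes of -0.41 (adjusted p = 0.0164) for decanal and -0.54 (adjusted p = 0.00257) for the mixture.

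**Figure D2:**
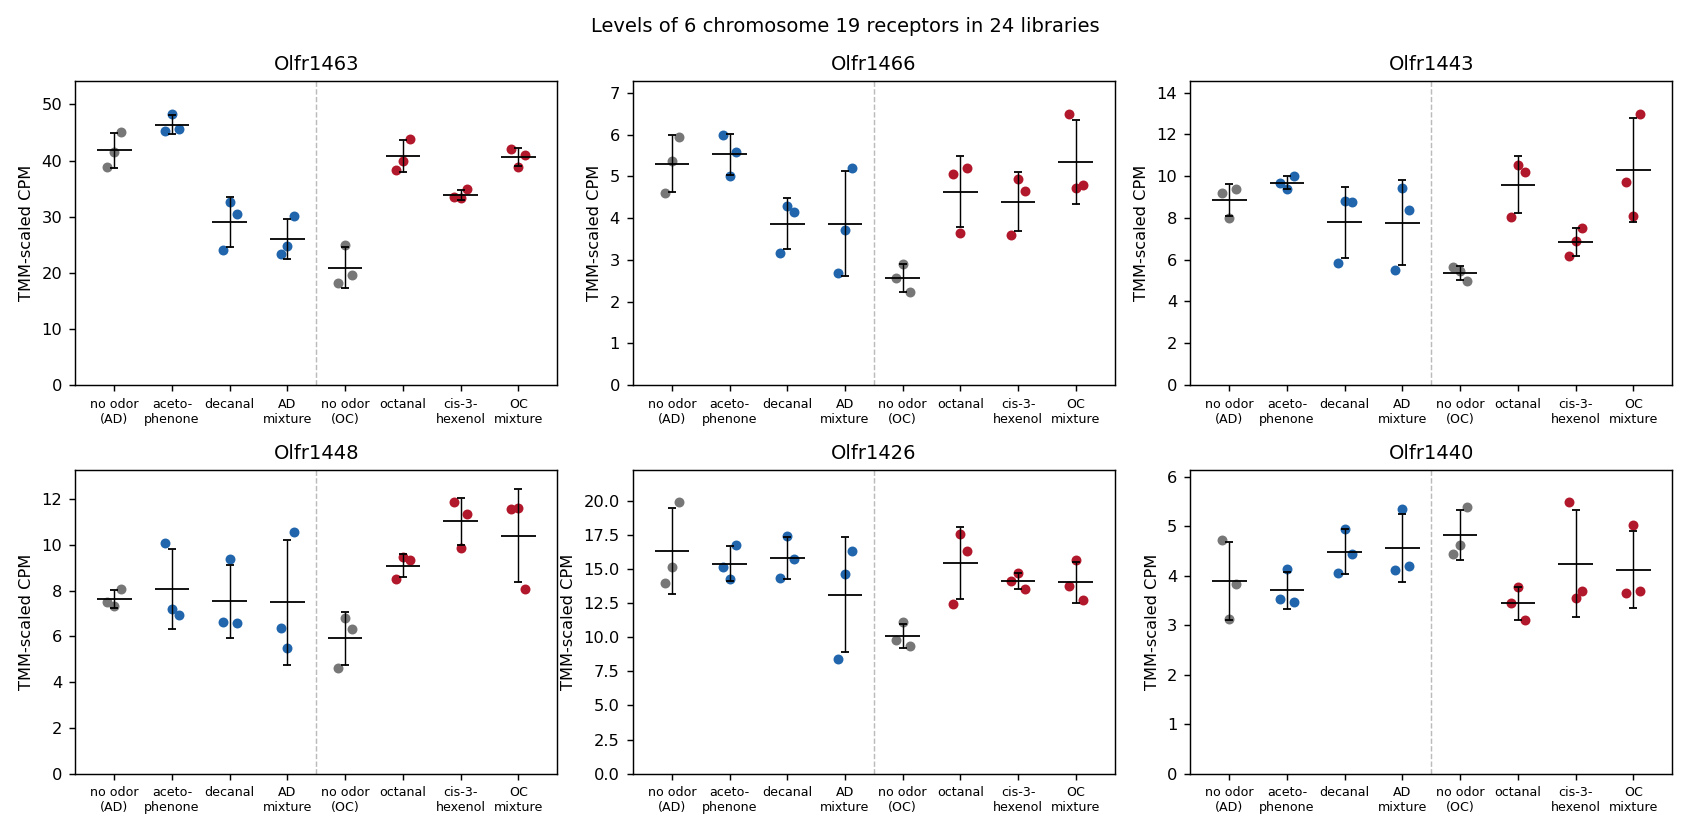
TMM-scaled CPM of 6 chromosome 19 receptors in 24 libraries (points), with group mean (line) and SD (bars); each panel has its own axis from 0, and a dashed line separates the batches, which were scaled separately. Olfr1463 lies at 24.1 to 32.5 CPM with decanal and at 38.9 to 45.1 CPM in its controls, and at 38.4 to 43.9 CPM with octanal and 18.1 to 25.01 CPM in its controls.

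With octanal 8 of the 47 receptors tested (17%) rose and none fell. Over all genes 14.4% were called higher and 15% lower, and among 877 other olfactory receptors 17% and 0.456%, so the count was near the background. Olfr1463 had the smallest p. It measured 38.4, 39.9 and 43.9 CPM with octanal against 18.1, 25.01 and 19.6 CPM with no odor. The groups were far apart, and the log2 fold change was 0.96 (SE 0.10, adjusted p = 7.76e-05). Olfr1466 measured 5.06, 3.65 and 5.21 CPM against 2.57, 2.89 and 2.22 CPM, a log2 change of 0.86 (SE 0.21, adjusted p = 0.00593). Olfr1443, another MOR202 receptor, measured 8.02, 10.5 and 10.2 CPM against 5.66, 5.45 and 4.97 CPM, a log2 change of 0.84 (SE 0.17, adjusted p = 0.00199). In both receptors every octanal library lay above every control.

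Of the other 5 called with octanal, 4 were MOR202 receptors and Olfr1426 was the 1 of MOR239. Olfr1426 measured 12.5, 17.5 and 16.3 CPM against 9.82, 11.1 and 9.37 CPM (log2 fold change 0.62, SE 0.13, adjusted p = 0.00238). Olfr1477 had a log2 fold change of 0.69 (adjusted p = 0.00796) and Olfr1448 one of 0.63 (adjusted p = 0.01). Olfr1484 (0.48, adjusted p = 0.0267) had overlapping groups and Olfr1442 (0.78, adjusted p = 0.0432) did not. The calls of these last 2 were lost in 4 and in 6 of the 6 fits that left out 1 library, whereas the other 6 were kept in all 6. Olfr1440 went the other way: it measured 3.45, 3.78 and 3.11 CPM with octanal and 4.44, 4.63 and 5.40 CPM with no odor. All 3 octanal libraries were below the controls, but the log2 fold change of -0.48 (SE 0.20, adjusted p = 0.081) did not pass. The MOR239 receptors Olfr1427 and Olfr1428, which are abundant as Olfr1426 is, had log2 fold changes of 0.26 (adjusted p = 0.0656) and 0.20 (adjusted p = 0.279); their difference from Olfr1426 was not tested.

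By family, MOR202 had 7 called of 22 tested with octanal, a median log2 fold change of 0.65 and 19 of 22 values above 0. MOR239 had 1 of 6 called and a median of 0.29, MOR266 had 0 of 8 and a median of 0.14, and MOR212 and MOR214 had 0 of 3 each and medians of 0.29 and 0.47. Over the 47 receptors the median was 0.37, beside 0.34 for other olfactory receptors and -0.02 for all genes. Without the third no-odor library 6 of the receptors were called.

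With cis-3-hexenol 4 of 47 receptors (8.51%) rose and none fell. Over all genes 5.56% were called higher and 6.65% lower, and among other receptors 9.46% and 0%. Both counts were thus near the background of receptors. Olfr1463 measured 33.4, 33.3 and 34.9 CPM, all above the highest control at 25.01 CPM, with a log2 change of 0.70 (SE 0.10, adjusted p = 0.00289). Olfr1448 measured 11.9, 9.88 and 11.3 CPM against 4.60, 6.79 and 6.34 CPM, a log2 change of 0.90 (SE 0.16, adjusted p = 0.00529). Olfr1448 was thus above its controls in all 3 libraries. Olfr1466 rose by 0.78 (SE 0.21, adjusted p = 0.0252) and Olfr1426 by 0.48 (SE 0.13, adjusted p = 0.0257), also without overlap. Only Olfr1463 and Olfr1448 kept their calls in all 6 fits that left out 1 library. The count was 8 without the second no-odor library, and 2 without the first no-odor, the third no-odor, the second cis-3-hexenol or the third cis-3-hexenol library. Over all 47 receptors the median log2 fold change was 0.36, and 0.43 for other receptors.

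With the mixture of octanal and cis-3-hexenol 13 of 47 receptors (27.7%) rose and none fell. Over all genes 11.5% were called higher and 12.7% lower, and among other receptors 27.4% and 0%. The shares called among these receptors were again near those of other receptors. Olfr1463 measured 42.0, 38.8 and 41.0 CPM (log2 fold change 0.96, SE 0.10, adjusted p = 7.91e-05). Olfr1466 measured 6.51, 4.73 and 4.79 CPM (1.06, SE 0.20, adjusted p = 0.00187), and Olfr1443 measured 9.72, 8.10 and 12.99 CPM (0.94, SE 0.17, adjusted p = 0.00129). All 9 of these values lay above the highest control of their gene. The MOR202 receptors Olfr1448 (0.82), Olfr1484 (0.65), Olfr1477 (0.72), Olfr1454 (0.97) and Olfr1480 were also called, as were Olfr1427 (0.40) and Olfr1426 (0.48) of MOR239, Olfr1417 (0.54) and Olfr1420 (0.45) of MOR266, and Olfr1500 (0.88) of MOR212. Olfr1480 had the largest log2 fold change, 1.67 (SE 0.58, adjusted p = 0.0489), from 16, 14 and 13 counts against 1, 4 and 8 counts, and its call was kept in 1 of 6 fits that left out 1 library. By family, MOR202 had 8 of 22 called and 22 of 22 values above 0, with a median of 0.81, and MOR266 had 2 of 8 called with a median of 0.35. The median over all 47 receptors was 0.50, beside 0.54 for other receptors. Without the third no-odor library 11 receptors were called.

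**Figure D3:**
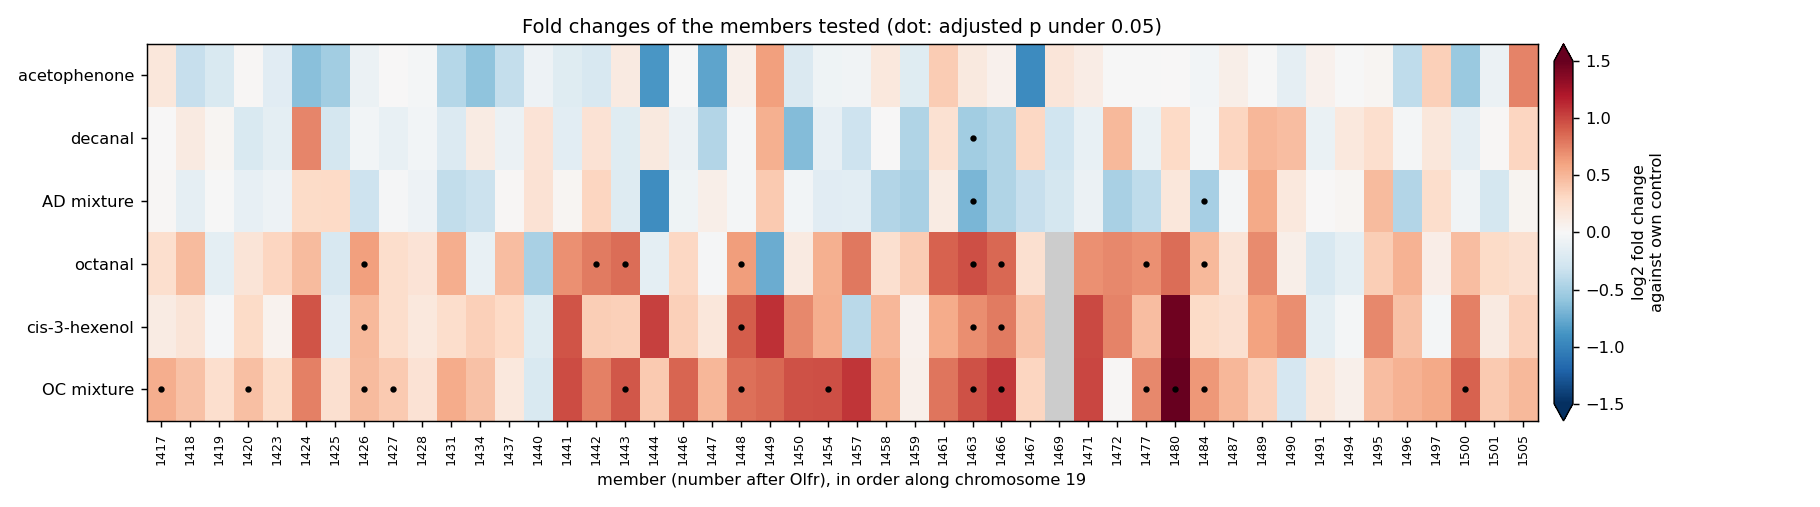
Log2 fold changes of the chromosome 19 receptors tested in at least 1 batch, in their order along the chromosome (columns), for each odorant or mixture against the no-odor group of its batch (rows); red is higher, blue lower, gray not tested, and a dot marks an adjusted p under 0.05. The dots in the lower 3 rows are all rises, and those in the upper 3 rows are all falls, of Olfr1463 with decanal and with the AD mixture and of Olfr1484 with the AD mixture.

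The smaller families and the weakly expressed receptors varied around these values. In the no-odor libraries the MOR127 receptor Olfr1496 stood at 1.27 ± 0.227 CPM per kb (SD, n = 6), and the MOR212 receptor Olfr1501, at 95.9% identity with Olfr1504, stood at 1.22 ± 0.166. The most abundant MOR214 receptor, Olfr1437, was at 1.22 ± 0.280 CPM per kb, while its close copy Olfr1436 (96.3% identity) was at 0.0282. Olfr1471 and Olfr1474 (97.1% identity) were at 0.233 ± 0.0862 and 0.137 ± 0.0828 CPM per kb, a gap within their spread, and Olfr1472 and Olfr1475 (96.9%) were at 0.296 and 0.00735. The levels of such close copies are uncertain because of shared reads, as given above. Olfr1436 and Olfr1475 also have no annotated untranslated exons, unlike their copies. The differences between copies were not tested. In the AD comparisons with no odor, MOR239 log2 fold changes ran from -0.62 to 0.73 and MOR266 from -0.35 to 0.48, with 0 calls in either family. MOR214 had 3 of 4 receptors tested and 0 calls. Its log2 fold changes ran from -0.61 to -0.36 with acetophenone, -0.20 to 0.13 with decanal, -0.37 to 0.02 with the AD mixture, -0.11 to 0.55 with octanal, 0.27 to 0.35 with cis-3-hexenol and 0.16 to 0.55 with the OC mixture. Over all 47 receptors, 40 values were above 0 with cis-3-hexenol and 45 with the OC mixture. Other olfactory receptors had similar medians, 0.425 beside 0.357 with cis-3-hexenol and 0.537 beside 0.5 with the mixture. Their values above 0 were not counted. The close pair Olfr1417 and Olfr1418 stood at 9.85 ± 0.539 and 5.49 ± 1.97 CPM (SD, n = 3) with the OC mixture, against 6.77 ± 1.30 and 4.07 ± 0.0672 CPM with no odor, where Olfr1417 passed the test (adjusted p = 0.0191) and Olfr1418 did not (adjusted p = 0.202); the difference between them was not tested.

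All 3 odorant groups of the OC batch were compared with the same no-odor libraries, in which the summed receptor counts were low. When libraries were scaled to those summed counts, the median log2 fold change of all genes became -0.42 with octanal, -0.38 with cis-3-hexenol and -0.52 with the mixture. That of the 47 receptors became -0.03, 0.01 and 0.00. On that scale 4 receptors were called with octanal: Olfr1463 (0.58, adjusted p = 2e-04) and Olfr1443 (0.44, adjusted p = 0.0484) higher, Olfr1440 (-0.88, adjusted p = 0.00455) and Olfr1494 (-0.54, adjusted p = 0.0481) lower. With cis-3-hexenol 2 were called, Olfr1463 (0.33, adjusted p = 0.0115) and Olfr1448 (0.53, adjusted p = 0.0144), both higher. With the mixture Olfr1463 (0.46), Olfr1466 (0.55) and Olfr1443 (0.43) were called higher and Olfr1440 (-0.74) and Olfr1490 (-0.76) lower, while Olfr1427, Olfr1426 and Olfr1420 came to -0.10, -0.03 and -0.05. Thus Olfr1463 was called relative to all genes and relative to all receptors in each of these 3 comparisons, and the direction of Olfr1427, Olfr1426 and Olfr1420 with the mixture depended on the scale. With offsets for transcript length and GC content, 5, 2 and 4 receptors were called, and Olfr1463 was among them each time.

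Red cell and bone genes fell in each odorant group of the OC batch, and marrow genes with octanal and the mixture. The summed level of 5 red cell genes was 744 to 1118 CPM with octanal against 2151 to 4458 CPM with no odor, and all 5 fell; 4 fell with cis-3-hexenol and 4 with the mixture. Of 8 neutrophil and marrow genes 7 fell with octanal, 0 with cis-3-hexenol and 6 with the mixture. Of 6 bone genes 5, 4 and 5 fell. Of 16 transduction genes 8 rose and 2 fell with octanal, 7 rose and 1 fell with cis-3-hexenol, and 9 rose and 1 fell with the mixture. Adcy3 rose by 0.58, 0.38 and 0.40 on the log2 scale. Of 9 genes of mature sensory neurons 5 rose and 1 fell with octanal (median log2 fold change 0.27), 4 rose and 1 fell with cis-3-hexenol (0.17), and 5 rose and 1 fell with the mixture (0.35). Omp, which is in this list, fell by 0.45, 0.31 and 0.32 on the log2 scale. The list again shares Cnga2, Adcy3, Gnal, Ano2 and Rtp1 with the transduction genes, so their counts are not separate. Of the 17 activity genes 10, 6 and 9 rose, and 0, 1 and 0 fell: Lrrc3b rose in each (1.27, 0.97 and 1.55), and Nr4a1 rose with octanal (1.99) and the mixture (1.62). Their part in the receptor results was not tested.

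Genes that control receptor choice were read beside the receptors. Of 19 such genes, 3 rose and 6 fell with octanal, 0 and 6 with cis-3-hexenol, 1 and 7 with the OC mixture, 4 and 7 with decanal, and 2 and 5 with the AD mixture; none was called with acetophenone. Over all genes, 29.4% were called in either direction with octanal, 12.2% with cis-3-hexenol and 24.2% with the OC mixture. These shares were 23.9% with decanal and 22.3% with the AD mixture. Lhx2, a homeodomain factor bound to receptor enhancers, had log2 fold changes of -0.14 with octanal (adjusted p = 0.166) and -0.0033 with decanal (adjusted p = 0.976). Atf5, a factor of the feedback that follows receptor choice, fell by 1.14 on the log2 scale with octanal (adjusted p = 1.77e-05) and had a log2 fold change of 0.53 with decanal (adjusted p = 0.000498). Gap43, a marker of immature sensory neurons, had log2 fold changes of -0.26 with octanal (adjusted p = 0.0381) and 0.13 with decanal (adjusted p = 0.251). With the AD mixture it was 0.239 (adjusted p = 0.0414). Of 6 genes of immature neurons, 0 rose and 2 fell with octanal, and 0 and 1 with cis-3-hexenol and with the OC mixture. With decanal 0 rose and 0 fell, and with the AD mixture 3 rose and 1 fell.

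The OC mixture did not differ from its components in any receptor by the test. Against octanal and against cis-3-hexenol it gave 0 calls among the 47 and 0% among all genes; at an unadjusted p under 0.05 there were 1 and 6 receptors, and DESeq2 called 0 and 0. Olfr1463 had log2 fold changes of -0.00425 against octanal (SE 0.10, adjusted p = 0.992) and 0.26 against cis-3-hexenol (SE 0.10, adjusted p = 0.708). Olfr1443 had 0.58 (SE 0.17, adjusted p = 0.536) and Olfr1490 had -0.95 (SE 0.29, adjusted p = 0.588) against cis-3-hexenol, the smallest p-values there, with groups that did not overlap.

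Decanal and octanal are straight-chain aldehydes of different length, and the difference between their responses, each against its own control, was tested in 1 fit of all 24 libraries. Of 49 receptors tested, 5 (10.2%) were called with a response higher for octanal and 1 (2.04%) with a lower one; of all genes 18% and 21.2% were so called, and of 899 other olfactory receptors 16% and 0.556%. The difference was 1.47 for Olfr1463 (SE 0.16, adjusted p = 1.99e-07), 1.29 for Olfr1466 (SE 0.30, adjusted p = 0.00138) and 1.00 for Olfr1443 (SE 0.26, adjusted p = 0.00373), and these 3 calls were kept in all 12 fits that left out 1 library. It was 0.77 for Olfr1477 (adjusted p = 0.0365), 0.64 for Olfr1426 (adjusted p = 0.0403) and -0.71 for Olfr1440 (adjusted p = 0.0372), which were called in 5, 5 and 4 of these fits. The count was 3 without the third AD no-odor, the third decanal or the third octanal library. Scaled to summed receptor counts, Olfr1463 (0.99, adjusted p = 2.32e-06), Olfr1466 (0.80, adjusted p = 0.0125) and Olfr1440 (-1.20, adjusted p = 0.00156) were called, and Olfr1443 was not (0.51, adjusted p = 0.0791). The aldehyde and the batch cannot be told apart in this difference.

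**Figure D4:**
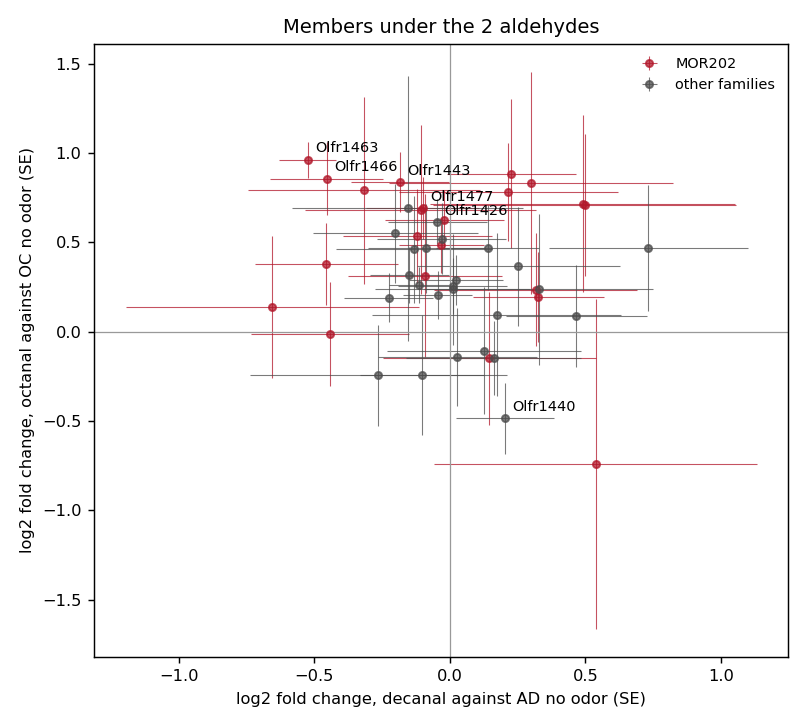
Log2 fold change of each chromosome 19 receptor tested in both batches with decanal (horizontal) and with octanal (vertical), each against the no-odor group of its batch; bars are standard errors, red points are MOR202 receptors and dark points those of other families. Olfr1463 and Olfr1466 lie at the upper left, at -0.53 and 0.96 and at -0.46 and 0.86, and Olfr1440 lies at the lower right, at 0.20 and -0.48.

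Olfr1463 was the 1 receptor of the 60 called in 5 of the 6 comparisons with no odor, which used 2 no-odor groups. It was lower in the AD batch and higher in the OC batch. It also held the most counts of the 60, 14.8%, against 1.88% for its nearest relative Olfr1466. Olfr1466 moved the same way in each of the 5 and was called in the OC batch only. Of the 60 genes, 12 were tested in neither batch. Levels of Olfr1463 ran from 33.3 to 43.9 CPM over the 3 odorant groups of the OC batch and from 18.1 to 25.01 CPM in that batch without odor. In the AD batch they ran from 38.9 to 45.1 CPM without odor and from 23.3 to 32.5 CPM with decanal and the mixture. The tables were scaled separately, so levels of different batches are given side by side without comparison. RefSeq gives Olfr1463 the synonym MOR202-29P. The longest open reading frame in its GENCODE M21 transcripts is 933 bases long.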

How the data were processed

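The deposited tables hold estimated counts per Ensembl gene, 1 table for each batch of 12 libraries, not scaled between libraries per the file headers. The submitters' processing notes name STAR 2.7.10b, Salmon 1.10.1, R 4.4.2 and GRCm39 without their roles, and the annotation release is not given in the sources used here. Values were rounded to whole counts (12.8% and 12.6% were not whole). GENCODE M21, of the earlier build GRCm38, named 52029 of 57010 IDs, so no gene coordinates from it are given.

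Tests were two-sided quasi-likelihood F-tests of edgeR 4.0.16 (limma 3.58.1, R 4.3.3) after filterByExpr and TMM, in 1 fit per batch, with Benjamini-Hochberg adjustment over the 19525 (AD) or 19175 (OC) genes tested. A gene was called at an adjusted p under 0.05. SE is the log2 fold change over the square root of F. The aldehyde difference used 24 libraries and 20018 genes. Replicates were separate mice per the labels. The lowest chi-square per gene between 2 libraries of a group was 5.68, so none was a duplicate of another in its group. The highest were 127 and 99.03, of the third OC no-odor library with the first and the second. Libraries of different groups were not compared in this way. The pipeline was tested on simulated data.

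Receptors named are the 10 highest per kilobase without odor, up to 10 called per comparison (3 by p where none), and up to 6 for the aldehydes; of other lists, up to 3 called genes and Omp, Gap43, Adcy3, Lhx2, Lrrc3b and Nr4a1. Olfr1487, Olfr1489, Olfr1490 and Olfr1494, and Olfr1443, Olfr1448, Olfr1427 and Olfr1440 where not called, were named after their values were seen. The same holds for receptors of the smaller families, close pairs and examples of lists. Receptors and lists were chosen with earlier results of these data known. Alternatives were DESeq2 1.42.0 size factors and its Wald test, scaling to summed receptor counts, no filter, a filter of 1 CPM in 3 libraries, a replicate block, length and GC offsets, fits of the groups compared alone, and leaving out each library.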

Additional observations from a re-analysis of the deposited data

Results flagged for a closer look

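For 6 receptors the response to octanal differed from the response to decanal by the test of the difference itself (edgeR, adjusted p under 0.05). Of the 49 tested, 10.2% were called with a higher response to octanal and 2.04% with a lower one. These shares were 18% and 21.2% for all genes, and 16% and 0.556% for other olfactory receptors. Fits that left out 1 library gave 3 to 8 calls. The log2 differences were 1.47 for Olfr1463, 1.29 for Olfr1466, 1.00 for Olfr1443, 0.77 for Olfr1477, -0.705 for Olfr1440 and 0.641 for Olfr1426. In the no-odor libraries Olfr1463 was at 38.9 to 45.1 CPM in AD libraries and at 18.1 to 25.01 CPM in OC libraries, and the 2 aldehydes were used in different batches, so chain length and batch cannot be told apart.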

How the results depend on the processing

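With libraries scaled to summed receptor counts, receptors called numbered 1 for the AD mixture, 4 for octanal, 2 for cis-3-hexenol, 5 for the OC mixture and 3 for the aldehyde difference, and Olfr1427, Olfr1426 and Olfr1420 with the OC mixture reversed to -0.10, -0.03 and -0.05; the cause was not tested. Length and GC offsets gave 2 for decanal, 1 for the AD mixture, 5 for octanal, 2 for cis-3-hexenol and 4 for the OC mixture. The same offsets with a replicate block gave 2 for decanal, 4 for octanal, 2 for cis-3-hexenol, 3 for the OC mixture and 3 for the aldehyde difference. Only the groups compared left 1 for the AD mixture. With no low-count filter there were 6 for the AD mixture against acetophenone and 1 for the OC mixture against cis-3-hexenol. The reason for these added calls was not tested. As a share of receptor counts in place of all counts, the receptors' sum differed from no odor by 0.5% with decanal, 3.8% with octanal, 0.3% with cis-3-hexenol and 2.7% with the OC mixture.

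Leaving out 1 library gave 0 to 0 calls for acetophenone, 1 to 1 for decanal, 1 to 3 for the AD mixture, 1 to 4 for it against acetophenone, 6 to 9 for octanal, 2 to 8 for cis-3-hexenol, 9 to 13 for the OC mixture and 3 to 8 for the aldehyde difference; the other mixture comparisons stayed at 0. Same-numbered libraries did not pair: their deviations correlated at -0.186 to 0.24 in the AD batch and -0.18 to 0.116 in the OC batch. A replicate block alone gave 1 call for decanal, 2 for the AD mixture, 8 for octanal, 4 for cis-3-hexenol, 13 for the OC mixture and 4 for the aldehyde difference. Over 52 pairs of a named receptor and a comparison, 657 alternatives kept direction and side of the threshold, 142 were no longer past it, 3 passed it anew and 3 reversed. Low counts limit the precision of receptors such as Olfr1480, at 1, 4 and 8 counts in the OC no-odor libraries.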
